A study of Rattus norvegicus with 8 samples.

Results

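The haemoglobin genes and Alas2 were described in the hippocampus of rats of 2 inbred strains. The members were chosen by Ensembl gene ID: 2 rows of alpha globin (ENSRNOG00000029886, copy 1, and ENSRNOG00000047321, copy 2), 2 rows of beta globin (ENSRNOG00000058105, copy 1, and ENSRNOG00000047098, copy 2) and Alas2 (ENSRNOG00000000167). All 5 were present among the 32623 genes of the matrix, and all 5 passed the filter on low counts with the 16867 genes tested. The groups were the spontaneously hypertensive rat (SHR), which develops high blood pressure, and its normotensive control strain, the Wistar-Kyoto rat (WKY), all at 32 weeks of age, with 4 libraries each. The rats of both strains were anaesthetised with sodium pentobarbital, and the hippocampus was taken out on ice and rinsed in phosphate-buffered saline. Whether the rats were perfused, and whether each library came from its own animal, is not given in the sources used here, so the p-values rest on variation from library to library that may be technical in origin.

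Haemoglobin carries oxygen in red blood cells as a tetramer of alpha and beta chains, each holding a haem group. The alpha genes and the beta genes lie in separate clusters of near-identical copies. Alas2 makes the erythroid form of the first and rate-limiting enzyme of haem synthesis, and its messenger RNA, like that of the globins, stays in young red cells after they lose their nucleus. In tissue that still holds blood, these transcripts are commonly read as a measure of blood content, although neurons and glia have also been reported to carry some globin RNA. In bulk tissue, fewer cells of a type and less RNA per cell cannot be told apart.

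The deposited table gives Ensembl IDs without symbols, so the names of the members are those of the rule that chose them, and markers of hippocampal neurons, vessels and other blood cells were not analysed here. RefSeq promoters (GRCr8, 250 bases before to 50 after each gene's start) were available for 3 alpha-type and 5 beta-type genes. They could not be assigned to the single alpha and beta rows, and of the members Alas2 alone was matched by its symbol. They are shown because copies of one cluster range from near-identical to clearly different, and windows of different clusters and of Alas2 are less alike still. The search was on both strands for AGATAA and TGATAA, forms of the site bound by GATA factors, for CACCC, the core of the site bound by Klf1, and for CCAAT. Matches are in capitals, written as they read on the gene's strand, so a match on the other strand appears as its reverse complement. The alpha genes are on the minus strand of chromosome 10, Hba-a1 at chr10:15842531-15842830 and Hba-a2 at chr10:15829089-15829388. The beta genes are on the minus strand of chromosome 1, Hbb-b1 at chr1:167643471-167643770 and Hbb at chr1:167663672-167663971. Alas2 is on the plus strand of chromosome X, at chrX:22895200-22895499.
Hba-a1: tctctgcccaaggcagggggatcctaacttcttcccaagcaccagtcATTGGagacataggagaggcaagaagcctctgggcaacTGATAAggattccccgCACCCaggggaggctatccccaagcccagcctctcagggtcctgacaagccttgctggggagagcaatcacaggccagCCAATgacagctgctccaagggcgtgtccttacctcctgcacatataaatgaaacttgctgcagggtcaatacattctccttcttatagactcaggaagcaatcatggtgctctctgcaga
Hba-a2: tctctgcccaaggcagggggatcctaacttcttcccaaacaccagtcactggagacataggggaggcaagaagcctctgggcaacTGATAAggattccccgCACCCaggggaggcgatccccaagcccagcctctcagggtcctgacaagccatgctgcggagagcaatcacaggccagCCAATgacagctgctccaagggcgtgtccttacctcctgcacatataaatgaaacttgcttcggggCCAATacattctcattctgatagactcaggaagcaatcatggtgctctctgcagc
Hbb-b1: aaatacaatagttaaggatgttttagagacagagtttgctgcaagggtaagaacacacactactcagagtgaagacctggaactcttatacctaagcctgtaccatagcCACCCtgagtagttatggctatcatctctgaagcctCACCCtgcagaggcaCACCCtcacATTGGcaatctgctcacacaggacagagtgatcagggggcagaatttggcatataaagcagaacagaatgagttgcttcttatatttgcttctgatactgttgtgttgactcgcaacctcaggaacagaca
Hbb: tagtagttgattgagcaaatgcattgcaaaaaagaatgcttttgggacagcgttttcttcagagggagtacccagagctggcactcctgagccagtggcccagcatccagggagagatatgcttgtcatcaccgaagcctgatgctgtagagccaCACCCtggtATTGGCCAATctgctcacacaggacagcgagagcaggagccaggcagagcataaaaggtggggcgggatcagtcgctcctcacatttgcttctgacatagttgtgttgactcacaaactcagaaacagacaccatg
Alas2: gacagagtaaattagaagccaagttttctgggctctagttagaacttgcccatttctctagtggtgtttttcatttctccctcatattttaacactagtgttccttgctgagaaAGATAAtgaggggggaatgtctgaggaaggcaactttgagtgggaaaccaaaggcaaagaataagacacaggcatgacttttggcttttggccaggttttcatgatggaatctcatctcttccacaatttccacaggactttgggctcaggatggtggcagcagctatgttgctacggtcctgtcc

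Over the aligned windows Hba-a1 and Hba-a2 were 96.0% identical, Hbb-b1 and Hbb 64.0%, Hba-a1 and Hbb-b1 51.1%, and Hba-a1 and Alas2 47.0%. The identity of unrelated windows in this alignment was not measured, so 51.1% and 47.0% give no degree of likeness. Hbb-b1 was 94.7% identical to Hbb-bs, 96.4% to Hbbl1 and 97.7% to Hbb-b2, whose windows are not printed. Hba-a3, the third alpha-type gene, whose window is not printed, was 70.6% identical to Hba-a1 and 70.2% to Hba-a2. Hba-a1 and Hba-a2 each held TGATAA at -165, CACCC at -149 and CCAAT at -71, counted from the start, and Hba-a3 held 0 matches to TGATAA and CACCC and 2 to CCAAT. Hbb-b1 held 3 matches to CACCC, Hbb 1, and the Alas2 window 0. Alas2 held AGATAA at -136, and Hbb-b1 and Hbb held neither GATA form. Of all 33469 RefSeq promoters of the same length, 18.9% held AGATAA or TGATAA, 54.9% CACCC and 37.5% CCAAT. A match is a description of the letters in the window and says nothing of binding. The Alas2 window reads tttccacag up to its start, which resembles the end of an intron. Whether the erythroid transcript begins at this start was not tested, so the window may not be the erythroid promoter of Alas2.

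Across the series the libraries held 45048841 to 49560687 counts in SHR and 53045139 to 53699673 in WKY, with no overlap, and levels are therefore given as CPM (counts scaled to a common library total, with TMM factors, so that libraries can be compared). WKY replicate 4 stood apart in edgeR. Over all 8 libraries 6 of 16867 genes, or 0.0356%, passed the strain test (edgeR quasi-likelihood, adjusted p under 0.05). Without this library 458 of 17029 did, or 2.69%. It is thus marked by the outcome of the strain test itself, and DESeq2 called 334 genes with all 8 libraries in. Most comparisons of the strains below are therefore also given without WKY replicate 4. The strain fit with the globin level as a covariate, spread, likeness and correlations are given over all 8 libraries. Levels are not scaled to gene length, so they are compared between libraries and not between genes.

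Globin and Alas2 levels were lower on average in SHR than in WKY, but the difference did not pass the test over all 8 libraries. The 4 globin rows took 0.0157, 0.0287, 0.0197 and 0.0217% of the counts in SHR replicates 1 to 4 and 0.105, 0.0433, 0.0469 and 0.0193% in WKY replicates 1 to 4. WKY replicate 1 held the most and SHR replicate 1 the least, and WKY replicate 4 lay inside the SHR range. SHR averaged 0.0214 ± 0.0054% and WKY 0.0537 ± 0.0365% (mean ± SD over 4 libraries each). The difference, SHR minus WKY, was -0.0323 percentage points, and single libraries moved it: it was -0.0151 without WKY replicate 1 and -0.0437 without WKY replicate 4.

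Summed over both copies, alpha globin was at 131, 189.7, 134 and 149 CPM in SHR replicates 1 to 4. In WKY replicates 1 to 4 it was at 752, 329, 341 and 139 CPM. WKY replicates 1 to 3 were above every SHR library, and WKY replicate 4 was between SHR replicates 3 and 4. SHR averaged 151 ± 27 CPM and WKY 390.5 ± 258 CPM (mean ± SD over 4 libraries each). On the log2 scale SHR was at -1.37 ± 0.40 (SE) relative to WKY, 2.59-fold lower (edgeR quasi-likelihood test, adjusted p = 0.251). WKY replicate 1 was at 2.20 times the next WKY library. Leaving it out brought the log2 difference to -0.84 ± 0.28 (edgeR, adjusted p = 0.425). Over all 8 libraries limma-voom gave a smaller log2 difference than edgeR, -1.14 ± 0.40 (SE).

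Beta globin, summed over both copies, was at 30.8, 92.0, 56.8 and 67.7 CPM in SHR replicates 1 to 4. In WKY replicates 1 to 4 it was at 300.5, 109, 129.7 and 54.0 CPM. The order was nearly that of alpha globin: WKY replicate 1 was highest, WKY replicates 2 and 3 followed, and WKY replicate 4 lay among the SHR libraries. SHR was 2.40-fold lower, at -1.26 ± 0.47 (SE) on the log2 scale (edgeR, adjusted p = 0.329). Leaving out WKY replicate 1 brought this to -0.66 ± 0.36, or 1.58-fold (edgeR, adjusted p = 0.620). Over all 8 libraries limma-voom gave -1.09 ± 0.48 (SE).

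Alas2 was at 1.15, 2.60, 1.35 and 1.50 CPM in SHR replicates 1 to 4, from 50 to 121 counts. In WKY replicates 1 to 4 it was at 7.37, 2.74, 3.42 and 1.36 CPM, from 73 to 391 counts. SHR replicate 2, the highest SHR library for all 5 members, came close to WKY replicate 2. SHR was 2.25-fold lower, at -1.17 ± 0.47 (SE) on the log2 scale (edgeR, adjusted p = 0.365). Leaving out WKY replicate 1 brought this to -0.60 ± 0.38, or 1.52-fold (edgeR, adjusted p = 0.676). Over all 8 libraries limma-voom gave -0.98 ± 0.52 (SE).

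**Figure D1:**
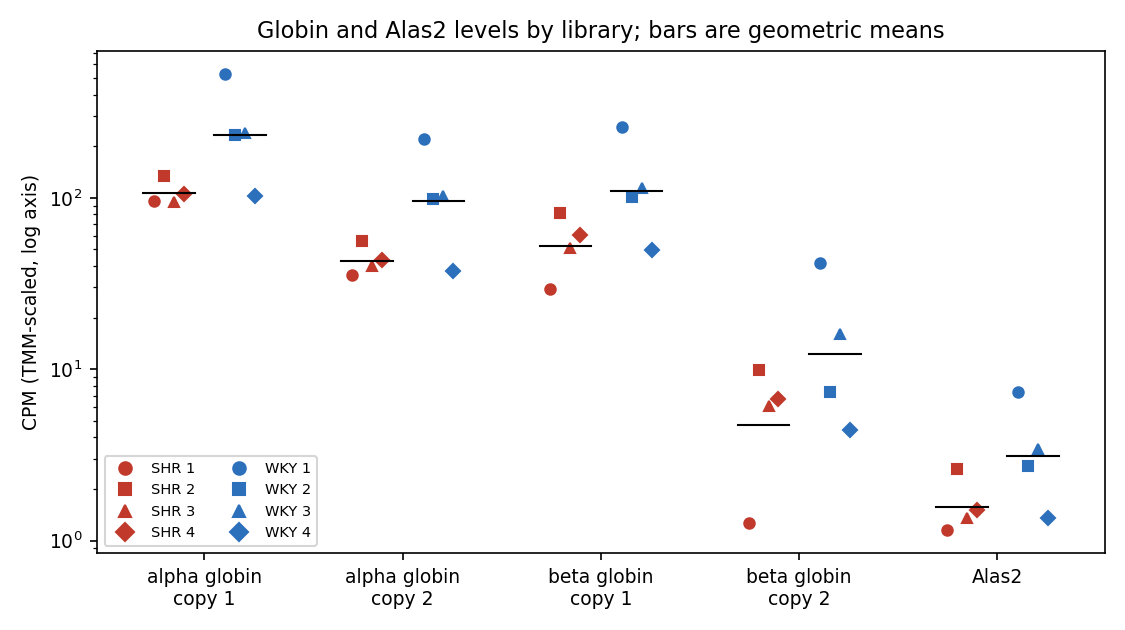
CPM (log axis) of the 4 globin rows and Alas2 in each of the 8 libraries, SHR in red and WKY in blue, with the marker shape giving the replicate and black bars the geometric mean of each strain. For every member WKY replicate 1 is the highest library, and WKY replicate 4 lies within the SHR range.

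The single rows followed their sums. Alpha copy 1 ranged from 94.2 to 134 CPM in SHR and from 102 to 531 CPM in WKY, and alpha copy 2 from 35.4 to 55.8 and from 37.7 to 221 CPM. Beta copy 1 ranged from 29.5 to 82.0 CPM in SHR and from 49.5 to 259 CPM in WKY. Beta copy 2 was the most variable, at 1.26 CPM in SHR replicate 1 and 6.06 to 9.92 CPM in the other SHR libraries, and at 41.9 CPM in WKY replicate 1 and 4.44 to 16.1 CPM in the other WKY libraries. Reads that match more than 1 near-identical copy may have been divided between rows by the counting, so the values of single copies are uncertain.

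Of the 5 members, 0 were called over all 8 libraries by edgeR, DESeq2 or limma-voom. Of all genes tested, 0.0296% were called lower in SHR by edgeR, 1.32% by DESeq2 and 4 of 16867 by limma-voom. At such low shares, 0 of 5 says little about the members. With unadjusted p under 0.05 in edgeR there were 4 of 5, all lower in SHR, beside 7.24% of all genes. The median log2 fold change of the 5 was -1.36, with a range of -1.54 to -1.17, and that of all genes tested was -0.0044. The members are not independent of each other, since they vary together across libraries (below).

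WKY replicate 4 was the lowest WKY library for every member and lay within the SHR range. Leaving it out therefore widens the strain difference by construction, and the values without it are descriptions, not separate support. Without WKY replicate 4 both alpha rows were called and the other members were not, 2 of 5, beside 1.53% of all genes called lower in SHR in that comparison. Summed alpha globin then had a log2 fold change of -1.65 ± 0.27, or 3.14-fold lower in SHR (edgeR, adjusted p = 0.0129). Summed beta globin was at -1.54 ± 0.39 (edgeR, adjusted p = 0.0713) and Alas2 at -1.45 ± 0.38 (edgeR, adjusted p = 0.0833), both short of the threshold. The CPM ranges of the strains then did not overlap for 4 of the 5 members, beside 9.07% of all genes that were so placed with SHR lower, where over all 8 libraries it was 0 of 5, beside 3.84%. The exception was beta copy 2, at 9.92 CPM in SHR replicate 2 and 7.39 CPM in WKY replicate 2. With both WKY replicate 1 and WKY replicate 4 left out, which sets 2 WKY libraries against 4 of SHR, the same 2 alpha rows were called, beside 0.943% of all genes called lower in SHR. Summed alpha globin was then at -1.15 ± 0.14 (edgeR, adjusted p = 0.00763), summed beta globin at -0.95 ± 0.32 (edgeR, adjusted p = 0.196) and Alas2 at -0.90 ± 0.34 (edgeR, adjusted p = 0.242). This setting was chosen after the data were seen. It takes out the highest and the lowest WKY library of every member, which narrows the WKY spread by construction. Its SE and p-values are therefore no fair measure of the strain difference.

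**Figure D2:**
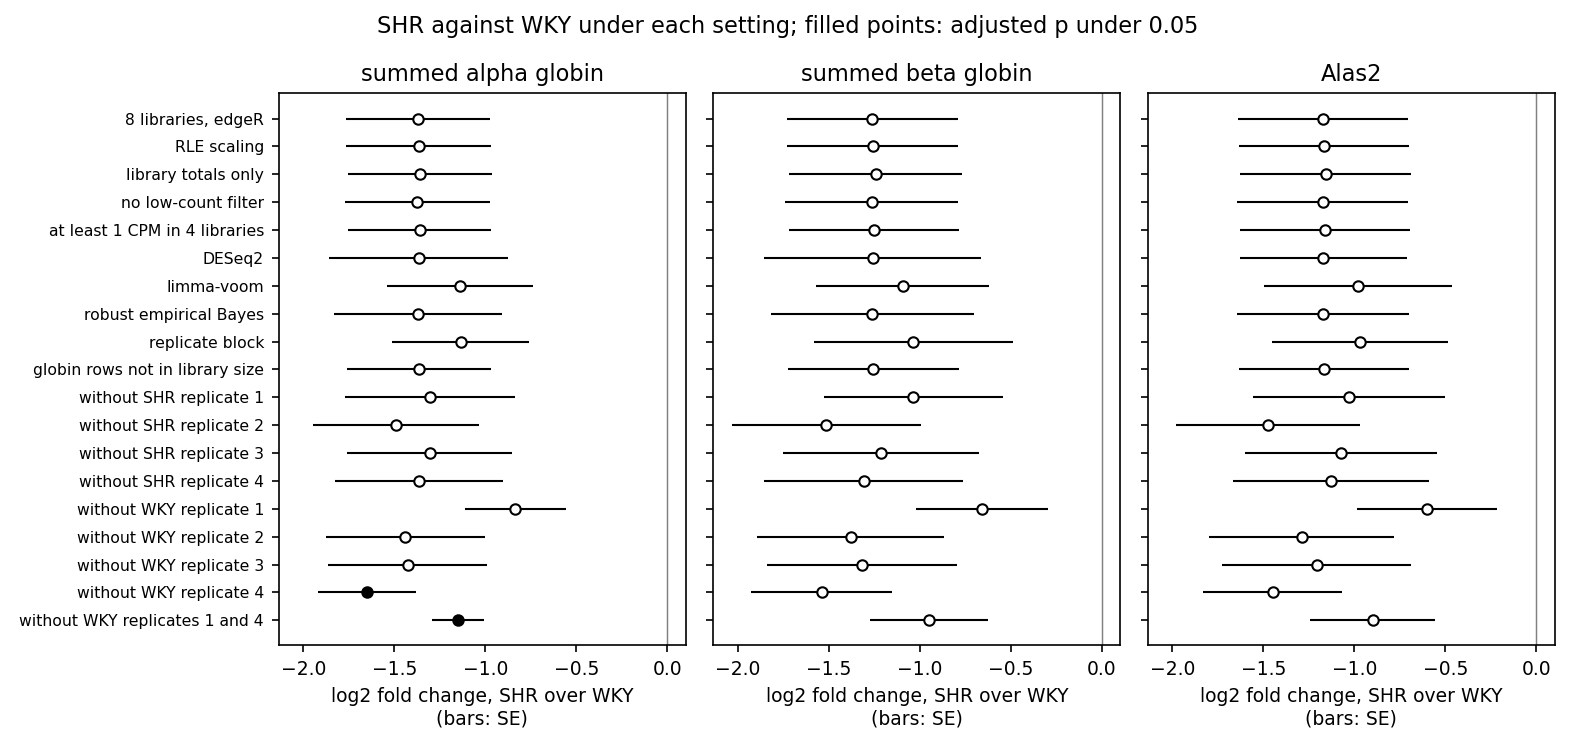
Log2 fold change of SHR over WKY with its SE for summed alpha globin, summed beta globin and Alas2 under each setting, with filled points where the adjusted p is under 0.05. All points lie below 0, and the filled points are those of alpha globin without WKY replicate 4, alone or together with WKY replicate 1.

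The globins and Alas2 varied more between libraries than most genes, and within strains as well as between them. The highest library exceeded the lowest 5.73-fold for summed alpha globin, 9.76-fold for summed beta globin and 6.42-fold for Alas2. On the log2 CPM scale the range over 8 libraries of the 5 members was wider than that of 93.4 to 99.4% of the genes tested. Within SHR the SD of alpha copy 1 was 0.23, at the 57.9th percentile of all genes, and that of alpha copy 2 was 0.28, at the 65.7th. For Alas2 it was 0.50, at the 85.6th, for beta copy 1 it was 0.62, at the 90.3rd, and for beta copy 2 it was 1.29, at the 97.6th. Within WKY the SD of the 5 members was 0.97 to 1.41, at the 95.1st to 97.6th percentile. Alpha globin was thus near the typical spread among the SHR libraries and far from it among the WKY libraries.

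Alpha and beta globin, which are made in the same cells in balanced amounts, rose and fell together across the 8 libraries. Pearson's r between the log2 CPM of summed alpha and summed beta globin was 0.945 (exact permutation p = 4.96e-05, adjusted over 2 relations 4.96e-05) and Spearman's rho 0.976 (exact permutation p = 0.000397, adjusted 0.000397). Without WKY replicates 1 and 3, the libraries farthest from the median, r was 0.804 over 6 libraries (exact permutation p = 0.0639), so the linear relation leans on them. Spearman's rho over the same 6 libraries was 0.943 (exact permutation p = 0.0167). Leaving these libraries out also narrows the range of levels. Alas2 kept the order of summed globin in all 8 libraries, with a rho of 1 (exact permutation p = 4.96e-05, adjusted 9.92e-05) and an r of 0.985 (exact permutation p = 2.48e-05, adjusted 4.96e-05). Without WKY replicates 1 and 3 this r was 0.936 (exact permutation p = 0.00139). Both strains enter these relations, and 4 libraries per strain are too few for a correlation within one.

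**Figure D3:**
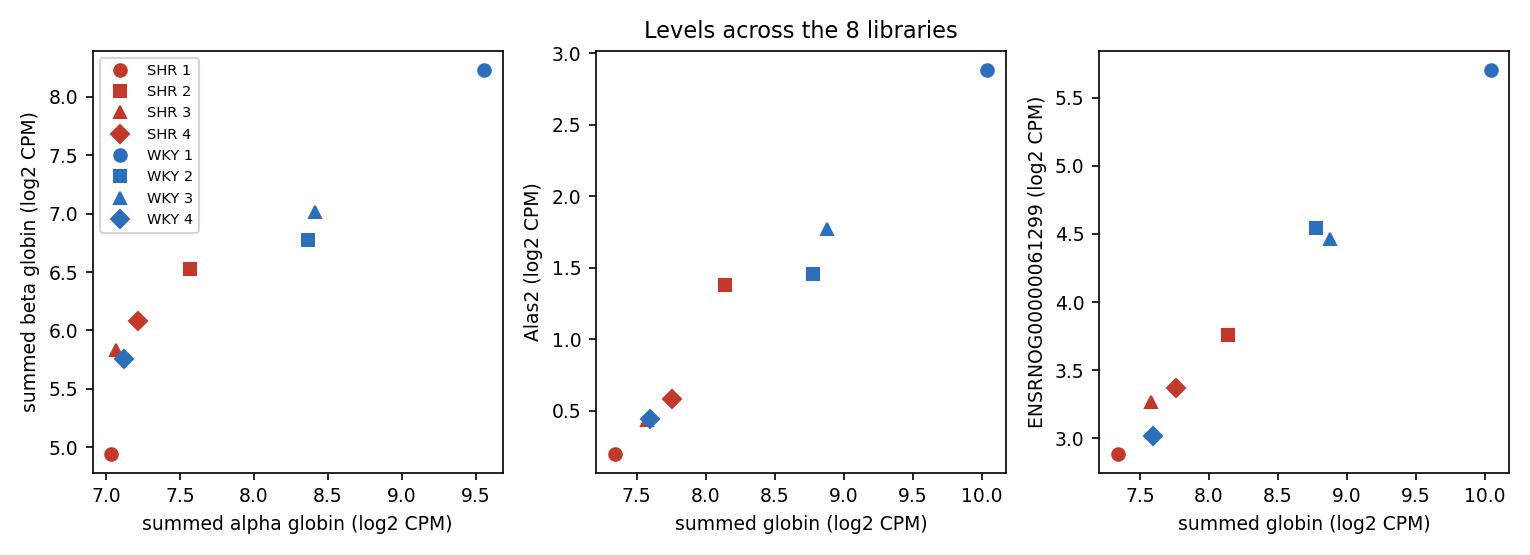
Log2 CPM of summed beta against summed alpha globin (left), and of Alas2 (middle) and ENSRNOG00000061299 (right) against summed globin, with 1 point per library, SHR in red and WKY in blue. All 3 panels run from SHR replicate 1 at the lower left to WKY replicate 1 at the upper right, with WKY replicate 4 among the SHR libraries.

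The proportion of Alas2 to globin was nearly the same in most libraries. Alas2 counts were 0.00628 to 0.00728 of the summed globin counts in 7 of the libraries and 0.00929 in SHR replicate 2. The log2 ratio averaged -7.04 ± 0.20 over the SHR libraries and -7.18 ± 0.09 over those of WKY (mean ± SD, here and for the ratios that follow). SHR minus WKY was 0.13, below the SD of SHR and above that of WKY (exact permutation test, two-sided p = 0.4, adjusted p = 0.821 over 5 library measures). Without SHR replicate 2 this difference was 0.036. Summed alpha counts were 4.26 times summed beta counts in SHR replicate 1 and 2.06 to 2.36 times in the other SHR libraries, and 2.50 to 3.01 times in WKY. The log2 ratio of alpha to beta averaged 1.38 ± 0.48 for SHR and 1.42 ± 0.12 for WKY (exact permutation test, two-sided p = 0.914, adjusted p = 0.914). These count ratios are not scaled to length and give no ratio of molecules.

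The alpha copies kept a nearly constant proportion across libraries, and the beta copies did not. Alpha copy 1 held 2.35 to 2.44 times the counts of alpha copy 2 in 6 libraries and 2.71 and 2.70 times in SHR replicate 1 and WKY replicate 4. The log2 ratio averaged 1.31 ± 0.09 for SHR and 1.29 ± 0.10 for WKY (exact permutation test, two-sided p = 0.657, adjusted p = 0.821). Beta copy 1 held from 6.17 times the counts of beta copy 2, in WKY replicate 1, to 23.2 times, in SHR replicate 1. This log2 ratio averaged 3.46 ± 0.72 for SHR and 3.18 ± 0.54 for WKY (exact permutation test, two-sided p = 0.6, adjusted p = 0.821). SHR replicate 1, with the fewest globin counts, was thus also the library with the lowest share of beta globin and, within it, of beta copy 2. None of these 4 ratios passed the test over 8 libraries, where the smallest p that 4 against 4 libraries can give is 0.0286. Without WKY replicate 4 none passed either (exact permutation tests, two-sided, adjusted p of 0.679 to 0.886). The alpha to beta ratio rested on SHR replicate 1: SHR minus WKY was -0.04 with it and -0.28 without it. Without it the SHR libraries (1.04 to 1.24) lay below all WKY libraries (1.32 to 1.59). The p was the smallest that 3 against 4 can give (exact permutation test, two-sided p = 0.0286, adjusted p = 0.143). SHR replicate 1 was singled out after the values were seen, as the library with the highest ratio. Leaving it out narrows the SHR spread by construction, so these values are a description, not separate support.

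**Figure D4:**
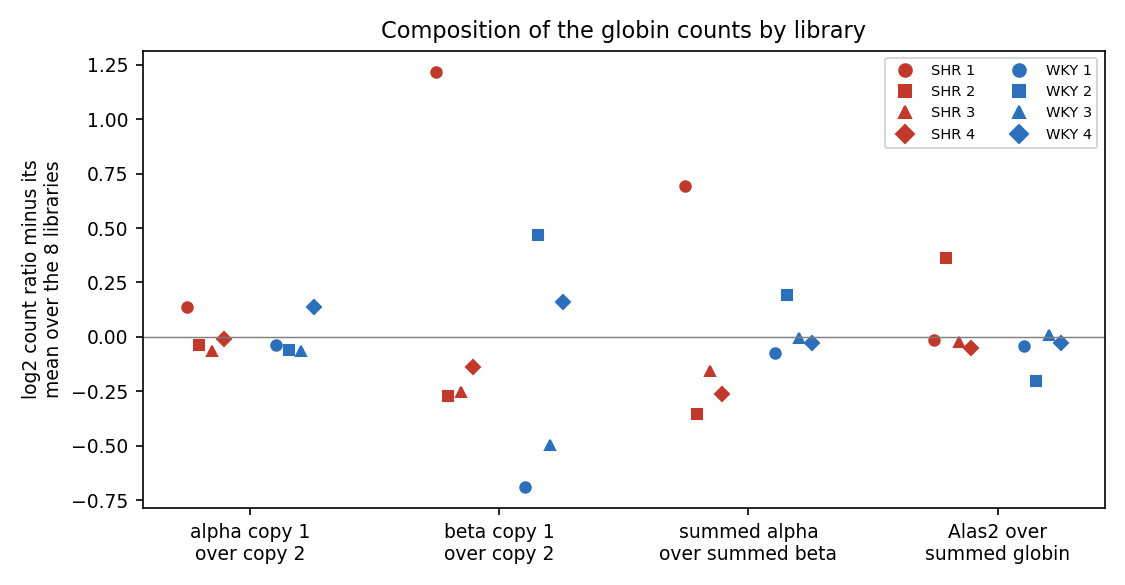
Log2 count ratios in each library, each minus its mean over the 8 libraries, for alpha copy 1 over copy 2, beta copy 1 over copy 2, summed alpha over summed beta, and Alas2 over summed globin. SHR replicate 1 lies above the other SHR libraries in the first 3 ratios, and SHR replicate 2 above all others in the last.

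A slope on the log2 summed globin CPM was fitted with strain as a second term. Only the 4 globin rows of the members were left out, so other globin genes may be among the 16863 genes read. Of the 16863 genes, edgeR called 1 (0.00593%) and limma-voom 27, of which 25 had a negative slope. The gene called by edgeR was ENSRNOG00000061299, with a slope of 1.09 ± 0.08 log2 units per log2 unit of globin (SE; edgeR quasi-likelihood test, adjusted p = 0.00212). It is named because edgeR called no other, and no symbol or function was matched to it. Whether it is itself a globin gene that shares reads with the members was not tested. It was at 7.40, 13.5, 9.64 and 10.3 CPM in SHR replicates 1 to 4 and at 52.1, 23.4, 22.1 and 8.09 CPM in WKY replicates 1 to 4. Its call was lost without WKY replicate 1 (edgeR, adjusted p = 0.0775) and without WKY replicate 4 (edgeR, adjusted p = 0.169), while its slope stayed between 0.99 and 1.17 with any 1 library left out. Alas2 had a slope of 1.05 ± 0.14, the 6th lowest p of the 16863 genes, and did not pass the threshold (edgeR, adjusted p = 0.0775). It passed in limma-voom (slope 1.04, adjusted p = 0.0246) and in edgeR with no strain term (slope 0.97, adjusted p = 0.00876). At a given globin level, SHR minus WKY in Alas2 was 0.20 ± 0.25 on the log2 scale (edgeR, adjusted p = 0.910).

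The genes whose log2 CPM was most like the summed globin level over the 8 libraries, among 13352 with a mean log2 CPM of at least 1, were ENSRNOG00000061299 (Pearson's r of 0.995), Alas2 (0.985) and ENSRNOG00000012807 (0.953). The last ranged from 30.8 to 34.9 CPM in SHR and from 37.2 to 55.0 CPM in WKY, a much narrower span than that of the globins. Most opposite were ENSRNOG00000027513 (r of -0.976), at 49.0 to 60.2 CPM in SHR and 19.5 to 55.9 CPM in WKY, and ENSRNOG00000021433 (r of -0.975), at 25.7 to 31.0 CPM in SHR and 14.9 to 34.1 CPM in WKY. In both, WKY replicate 4 was the WKY library nearest to SHR, as it was for the globins. An r of at least 0.9 was held by 26 of the 13352 genes, and one of -0.9 or lower by 37. These likenesses are descriptions of libraries that share their strain and their scaling.

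With the log2 globin level as a covariate, 19 genes differed between the strains (edgeR, adjusted p under 0.05), all lower in SHR, in place of 6 without it, and 2 genes were in both sets. The number with an unadjusted p under 0.05 was 1206 with the covariate and 2038 without. Globin level and strain are partly confounded in these libraries, since WKY replicates 1 to 3 held more globin than every SHR library, and the part of blood content in the strain differences was not tested.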

How the data were processed

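Per the labels, total RNA of hippocampal tissue was sequenced, with 4 libraries per strain taken from the sample titles. The authors deposited estimated counts per gene, already whole numbers, as 1 matrix and 8 single-library tables. All 8 tables equalled the matrix column of their title, although 4 carried another number in the header. The tools named, per the submitters' processing notes, are cutadapt 1.9, HISAT2 2.0.4 and StringTie 1.3.4d, with the rn6 build. The sources used here give neither annotation nor strand setting, nor how multiply mapped reads were treated. In all 8 libraries more genes had exactly 4 counts than exactly 3, so the counts were not taken as single fragments and no counting intervals are given.

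Tests were edgeR 4.0.16 quasi-likelihood fits (R 4.3.3) over all genes (TMM scaling, filterByExpr with its defaults, Benjamini-Hochberg adjustment at 0.05). For the sums, the copies were replaced by their sum before the fit. CPM are TMM-scaled, with a prior count of 2 on the log2 scale for likeness and spread. In edgeR the SE is the absolute log2 fold change over the square root of F. For limma-voom it is the absolute log2 fold change over the absolute t, and for DESeq2 the SE it reports. Library ratios (0.5 added to each side) and correlations used exact permutation tests, two-sided (Python 3.11.15, SciPy 1.17.1). Scripts were tested on simulated data. Alternatives included DESeq2 1.42.0 and limma-voom (limma 3.58.1). Named genes were the 5 members and, by ID, the 2 genes most and 2 least like the globin level. The members and tests were chosen with earlier results of these data known. The reference table paired 0 entries with Ensembl IDs, so planned lists of haem, red cell and vessel genes were not tested. Promoters are RefSeq's, in GRCr8, aligned globally.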

Additional observations from a re-analysis of the deposited data

Results flagged for a closer look

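Of 28 sets of 4 libraries screened (levels and ratios in each strain), 3 held a library far from the other 3, where chance picks about 1 set in 20, and the sets are not independent. The log2 ratio of alpha copy 1 to copy 2 was 1.43 in WKY replicate 4, above the other WKY libraries. The log2 ratio of beta copy 1 to copy 2 was 4.53 in SHR replicate 1, above the other SHR libraries. The log2 ratio of Alas2 to summed globin was -6.75 in SHR replicate 2, above the other SHR libraries.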

How the results depend on the processing

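All 5 members and both sums were lower in SHR under each scaling, filter, tool, block and left-out library tried. With the globin covariate, which is built from the globin rows, the SHR minus WKY value was positive for Alas2 (0.20), beta copy 1 (0.12) and beta copy 2 (0.43), none called. Summed alpha globin, not called over 8 libraries, was called without WKY replicate 4, the WKY library with the least globin (log2 fold change -1.65). It was also called without both WKY replicates 1 and 4, the WKY libraries with the most and the least globin (-1.15, chosen after the data were seen). With single libraries left out it ranged from -1.65 to -0.84. The same range was -1.54 to -0.66 for summed beta globin and -1.47 to -0.60 for Alas2, and neither was called under any of these alternatives (adjusted p of 0.0713 to 0.657 and 0.0833 to 0.676). The genes called between the strains, 6 in all, were 3 with no low-count filter, 334 with DESeq2, 3 with the globin rows left out of the library size, 19 with the globin covariate, 315 without both WKY replicates 1 and 4, and 1 to 458 with single libraries left out. The genes called on the globin slope, 1 in edgeR, were 27 in limma-voom, 6 with no strain term, 0 without both WKY replicates 1 and 4 (654 at an unadjusted p under 0.05) and 0 to 3 with single libraries left out, with 0 without WKY replicate 1 (1976 at an unadjusted p under 0.05) and without WKY replicate 4 (647). The Alas2 slope passed the threshold in limma-voom (1.04) and with no strain term (0.97). The relation of alpha to beta fell short of its threshold without the 2 farthest libraries in Pearson's r (0.80). With single libraries left out, the difference between strains (SHR minus WKY) in the log2 ratio of alpha to beta ran from -0.28 (without SHR replicate 1) to 0.07, that of the alpha copies from -0.0304 to 0.0609 and that of the beta copies from -0.08 to 0.48, changing sign. The reversed values were 0.0693, 0.00363 and 0.0384 for alpha to beta without SHR replicates 2, 3 and 4 and 0.0148 without WKY replicate 2, then -0.0304, -0.0038 and -0.0059 for the alpha copies without SHR replicate 1, WKY replicate 2 and WKY replicate 3, and -0.0803 for the beta copies without SHR replicate 1. The cause of these changes was not tested. The deviations of same-numbered libraries from their strain means correlated at -0.093, -0.0034, -0.157 and -0.153. These values show no pairing by replicate number. Deviations from means of 4 libraries cannot settle whether libraries were handled in pairs. With the replicate number as a block, 1 gene was called between the strains and none of the 5 members was. DESeq2 and limma-voom called 0 members over 8 libraries, beside 222 and 4 of 16867 genes called lower in SHR.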
